A study of Mus musculus with 6 samples.

Results

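Alternative activation is the state that macrophages enter under interleukin 4 and interleukin 13, and 10 genes that mark it in mice are described here. They were listed by name, matched by Ensembl identifier among the 22962 genes of the deposited table, and all 10 were found: Chil3, Chil4, Retnla, Mrc1, Mgl2, Clec10a, Ccl24, Alox15, Tgm2 and Socs1. Macrophage RNA was sequenced from C57BL/6 mice given saline (3 libraries, replicates 1, 2 and 3) or bleomycin (3 libraries, replicates 1, 2 and 5) into the trachea 2 weeks earlier. Bleomycin is a DNA-breaking drug that is widely used to produce lung fibrosis. The cells came from lavage of the air spaces and were kept if they stuck to a culture plate during a short incubation, so any other adherent lavage cell was kept with them. The labels name no transgene or other allele in either group, give neither age nor sex, and do not say whether each library was a mouse of its own. The p-values therefore reflect only how these samples vary, and that variation may be technical.

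Interleukin 4 and interleukin 13 bind receptors built on the interleukin 4 receptor alpha chain, encoded by Il4ra, which pairs with the common gamma chain (Il2rg) or with Il13ra1. Janus kinases on these chains phosphorylate STAT6, which dimerises, enters the nucleus and binds DNA at TTC and GAA spaced by 4 bases, while other STAT dimers prefer a spacing of 3 bases. Genes that respond in mouse macrophages encode secreted chitinase-like proteins (Chil3, Chil4), the resistin-like protein Retnla, surface lectins (Mrc1, Mgl2, Clec10a), the eosinophil attractant Ccl24, and the enzymes arachidonate 15-lipoxygenase (Alox15) and transglutaminase 2 (Tgm2). Socs1 is an inhibitor that feeds back on the kinases. Below, a gene's 6 values are normalized read counts, in the order of replicates 1, 2 and 3 for saline and 1, 2 and 5 for bleomycin.

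The 10 genes did not move as a block. By limma, on log2(normalized read count + 1), with p-values adjusted by the Benjamini-Hochberg method over 13512 genes tested and a threshold of 0.05, Mgl2 and Clec10a rose after bleomycin, Chil3 fell, and Chil4, Mrc1, Tgm2 and Socs1 did not pass. Retnla, Ccl24 and Alox15 were too low to be tested. Of the 7 tested, 2 rose and 1 fell, where 9.76% of all tested genes rose and 3.9% fell (13.7% in either direction, with 71.5% of calls rises, or 59.8% after quantile normalization). Their median log2 fold change was -0.14, against -0.01 over all genes tested. In 4 of the 7 every saline value lay on one side of every bleomycin value, as in 30.8% of all genes tested. A test needed a value of at least 10 in 3 libraries or more. Each tested member had it in 5 or 6 libraries, saline ones included.

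**Figure D1:**
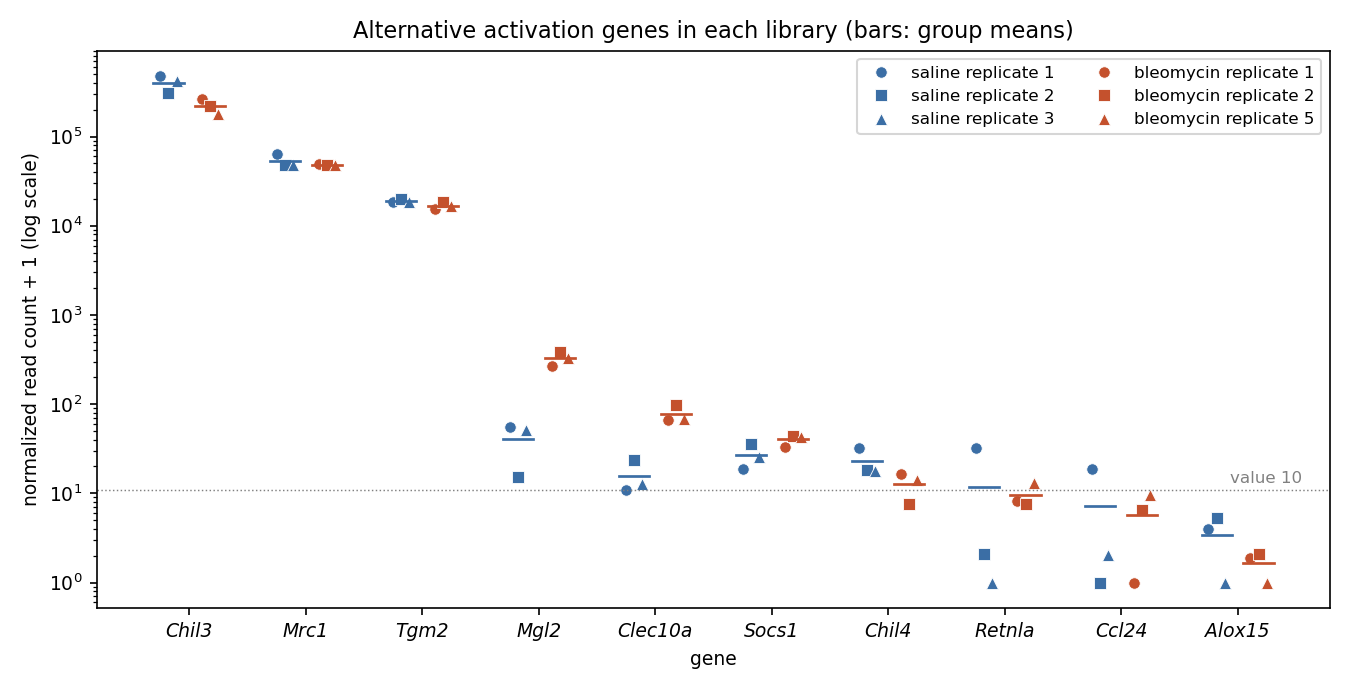
Normalized read count + 1 on a log axis for each of the 10 genes, in 3 saline libraries (blue) and 3 bleomycin libraries (red). Each point is a library, bars are group means, and the dotted line marks a value of 10. Chil3, Mrc1 and Tgm2 lie at 15259 or higher in all 6 libraries, the other 7 at 387 or lower, and the groups of Mgl2 and of Clec10a stand apart.

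Sequences of the 2 chitinase-like genes are shown first, because their levels differ by 4 orders of magnitude although the genes are close copies. Chil3 (ENSMUSG00000040809, chromosome 3, 106147554 to 106167564, minus strand, GRCm38) and Chil4 (ENSMUSG00000063779, chromosome 3, 106201490 to 106219507, minus strand) encode proteins whose coding sequences were 95.4% identical over 1194 aligned bases. Of the 1490 windows of 50 bases in the Chil4 transcript, 18.5% occurred whole in Chil3, so a read from such a stretch fits both genes. The first 90 coding bases, from the GENCODE transcripts Chil3-201 and Chil4-201, differ at 2 positions, which are in capitals:
Chil3: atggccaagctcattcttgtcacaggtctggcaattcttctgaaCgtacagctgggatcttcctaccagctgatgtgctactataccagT
Chil4: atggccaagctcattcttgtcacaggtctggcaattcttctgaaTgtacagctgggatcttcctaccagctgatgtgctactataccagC

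Promoters were available for 6 of the 10 genes (RefSeq, GRCm38.p6), and the 250 bases before the annotated start were searched for TTC and GAA with any 4 bases between them, and for TTCNNNGAA, with any 3. Both motifs read the same on either strand, and no matches overlapped here. The 4 shown are the chitinase-like pair, Retnla and Mgl2, the gene with the largest rise. Matches are in capitals.
Chil3, chr3:106167565-106167814, minus strand: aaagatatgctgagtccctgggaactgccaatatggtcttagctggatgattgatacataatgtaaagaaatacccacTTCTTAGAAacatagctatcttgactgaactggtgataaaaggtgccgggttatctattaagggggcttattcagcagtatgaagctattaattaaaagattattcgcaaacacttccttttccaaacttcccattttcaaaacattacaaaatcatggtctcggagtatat
Chil4, chr3:106219480-106219729, minus strand: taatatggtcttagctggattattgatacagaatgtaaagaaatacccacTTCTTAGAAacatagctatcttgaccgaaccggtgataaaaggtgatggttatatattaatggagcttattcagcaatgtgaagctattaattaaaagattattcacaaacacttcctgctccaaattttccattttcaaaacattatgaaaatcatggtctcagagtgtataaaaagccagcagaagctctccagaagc
Retnla, chr16:48842359-48842608, plus strand: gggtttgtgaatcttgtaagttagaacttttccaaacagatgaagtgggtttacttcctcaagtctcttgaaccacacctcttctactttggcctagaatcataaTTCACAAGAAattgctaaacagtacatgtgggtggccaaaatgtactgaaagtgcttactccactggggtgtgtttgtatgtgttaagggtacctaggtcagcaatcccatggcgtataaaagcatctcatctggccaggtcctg
Mgl2, chr11:70130107-70130356, plus strand: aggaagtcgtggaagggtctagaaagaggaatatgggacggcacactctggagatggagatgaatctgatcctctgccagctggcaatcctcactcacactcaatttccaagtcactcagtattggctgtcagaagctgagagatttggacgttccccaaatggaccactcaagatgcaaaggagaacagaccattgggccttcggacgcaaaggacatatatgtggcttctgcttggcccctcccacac

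Retnla held 1 match with the 4-base spacing, which began 145 bases before its RefSeq start. That start lies 58 bases downstream of the GENCODE start of Retnla. Chil3 and Chil4 each held the same match with the 3-base spacing, beginning 172 and 200 bases before their RefSeq starts. The RefSeq start of Chil4 lies 28 bases downstream of its GENCODE start, so the match has the same place in both genes relative to GENCODE. The promoter windows of the pair were 91% identical over 221 aligned bases. In the windows of Mgl2, Mrc1 and Socs1 neither motif was found. The RefSeq starts of Mgl2 and Mrc1 lie 28 and 22 bases downstream of their GENCODE starts. Among 32851 promoter windows of that length, 5.85% held the motif with 4 bases and 7.02% that with 3. A match is a description of these letters, and binding was not measured.

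Chil3, also called Ym1, is a lectin of the chitinase family that mouse alveolar macrophages make in very large amounts, and it was lower after bleomycin. Its normalized read counts were 476558, 311298 and 419785 with saline and 264167, 222670 and 179106 with bleomycin. Every saline library was above every bleomycin library. Per kilobase of exon its mean level ranked 3rd of 22873 genes in saline and 10th in bleomycin libraries, and its share of a library's summed values was 1.34% on average in saline (1.04 to 1.63%) and 0.696% in bleomycin (0.559 to 0.828%). The fall was 1.81-fold, with log2 -0.85 ± 0.23 (SE) and adjusted p = 0.0388. The call was lost on leaving out any of saline replicates 1 and 3 and bleomycin replicates 2 and 5, where adjusted p was 0.105 to 0.188, and also without the filter (0.0585) or the intensity trend (0.066). By edgeR and DESeq2, which called 13.5% and 17.1% of the genes they tested, adjusted p was 0.0213 and 0.00039. In the same libraries 8 of 16 listed markers of resident alveolar macrophages fell and 1 rose (Fabp5, a fatty acid binding protein). Over all genes tested 3.9% fell and 9.76% rose. The sum of the 16 markers was 452182 to 488537 in saline and 350463 to 397822 in bleomycin libraries. In a bulk sample, fewer cells of a type and less RNA per cell cannot be told apart.

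Chil4, also called Ym2, is known chiefly from the epithelium of the airways and stomach, and was near the limit of detection. It had 31.4, 17.4 and 17 normalized counts with saline and 15.3, 6.59 and 12.9 with bleomycin, from 64 reads over the saline and 38 over the bleomycin group. The groups did not overlap, but the difference did not pass (log2 -0.88 ± 0.47, adjusted p = 0.292), and the interval of its ratio of bleomycin to saline ran from 0.26 to 1.14. Chil3 was 15188, 17908 and 24740 times as high as Chil4 with saline, and 17299, 33777 and 13852 times with bleomycin. The log2 ratio of Chil3 to Chil4 was 14.13 ± 0.34 (SD, n = 3) in saline and 14.16 ± 0.61 in bleomycin libraries, a difference of 0.02 (two-sided exact permutation test, p = 1, where the smallest p possible is 0.1). The ratio thus spanned 13852 to 33777 over the 6 libraries, and how many of the Chil4 reads came from Chil3 was not tested.

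Retnla, also called Fizz1 or RELM alpha, is a secreted marker of interleukin 4 responses and was found in traces. It lies on chromosome 16, 48842551 to 48844461. Its values were 31.4, 1.09 and 0 with saline and 7.19, 6.59 and 12.1 with bleomycin. Saline replicate 1 held 32 of the 33 saline reads, so the saline mean of 10.8 ± 17.8 (SD, n = 3) rests on 1 library, whereas the 28 bleomycin reads were spread over all 3. The 2 groups overlapped, and the ratio of summed reads, bleomycin to saline, was 0.768, with a 95% binomial counting interval of 0.447 to 1.31 that covers counting error only. Fitted without the filter, the log2 fold change had the opposite sign, 1.20 ± 1.09 (adjusted p = 0.62 over 22962 genes).

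Ccl24, eotaxin 2, followed Retnla in where its reads lay. The gene is on chromosome 5, 135569937 to 135573049, minus strand. It had 17.7, 0 and 1.06 with saline and 0, 5.49 and 8.62 with bleomycin, with 18 of its 19 saline reads in saline replicate 1. Among the 10 genes, saline replicate 1 was the highest saline library for 6 (Chil3, Chil4, Retnla, Mrc1, Mgl2 and Ccl24) and the lowest for 3 (Clec10a, Tgm2 and Socs1). Ccr3, the receptor for eotaxins on eosinophils, had 5.88 in saline replicate 1, 0.862 in bleomycin replicate 5 and 0 in the other 4 libraries, and was chosen for mention after its values were seen. Without the filter, Ccl24 had log2 0.23 ± 1.14 (adjusted p = 0.939), and the ratio of summed reads was 0.715 (counting interval 0.338 to 1.49).

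Alox15, which oxygenates arachidonic acid and is strongly induced by interleukin 4 in human monocytes, was all but absent. It had 2.94, 4.35 and 0 with saline and 0.898, 1.1 and 0 with bleomycin, which is 7 reads over the saline and 2 over the bleomycin group. The ratio of summed reads was 0.259, with a counting interval of 0.0262 to 1.36, so that no difference was detectable at this depth. The gene lies on chromosome 11, 70344152 to 70352031, minus strand. The libraries held 27654799 to 37147983 reads, and 3 reads correspond to a value of 2.59 to 3.3.

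The mannose receptor Mrc1 (CD206), which takes up glycoproteins and is carried by resident alveolar macrophages as well as by alternatively activated cells, was abundant in both groups and did not pass the test. It lies on chromosome 2, 14229392 to 14332057, plus strand. It had 64220, 48190 and 47687 with saline and 49316, 47524 and 47425 with bleomycin. The groups overlapped, and saline replicate 1 alone was high. The ratio of bleomycin to saline was 0.91, with a 95% interval of 0.721 to 1.15 (log2 -0.14 ± 0.15, adjusted p = 0.644). Without saline replicate 1 the log2 fold change was 0.0043.

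Mgl2 (ENSMUSG00000040950, CD301b) had the largest change of the 7 tested, and the paralog Clec10a (ENSMUSG00000000318, Mgl1, CD301a) the next. Both are C-type lectins that bind galactose or N-acetylgalactosamine, and both are carried by some dendritic cells and monocyte-derived macrophages. They lie in tandem on the plus strand of chromosome 11, at 70130329 to 70137550 and 70156197 to 70170834, and their coding sequences were 89.8% identical over 922 aligned bases, with 15.3% of the 50-base windows of Mgl2 found whole in Clec10a. Mgl2 had 54.9, 14.1 and 50.9 with saline and 269, 387 and 324 with bleomycin. The lowest bleomycin library stood above the highest saline library, and the rise was 9.19-fold (95% interval 4.36 to 19.4, log2 3.20 ± 0.47, adjusted p = 0.00295). Without saline replicate 2 it was log2 2.59.

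Clec10a had 9.81, 22.8 and 11.7 with saline and 65.6, 95.6 and 66.4 with bleomycin. It rose 5.1-fold (95% interval 2.77 to 9.4, log2 2.35 ± 0.39, adjusted p = 0.00485), again with no overlap between the groups. Within the saline group the 2 lectins took opposite places: saline replicate 2 was the lowest of the 3 for Mgl2 and the highest for Clec10a. This order rests on few reads: 56, 13 and 48 of Mgl2 and 10, 21 and 11 of Clec10a in saline replicates 1, 2 and 3. The ratio of Mgl2 to Clec10a was 5.6, 0.619 and 4.36 with saline and 4.11, 4.05 and 4.88 with bleomycin. On the log2 scale it differed between the groups by 0.85 (two-sided exact permutation test, p = 0.9), and by -0.10 without saline replicate 2. Both rises passed without any 1 library, with adjusted p of 0.000843 to 0.015 for Mgl2 and 0.00327 to 0.0329 for Clec10a.

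**Figure D2:**
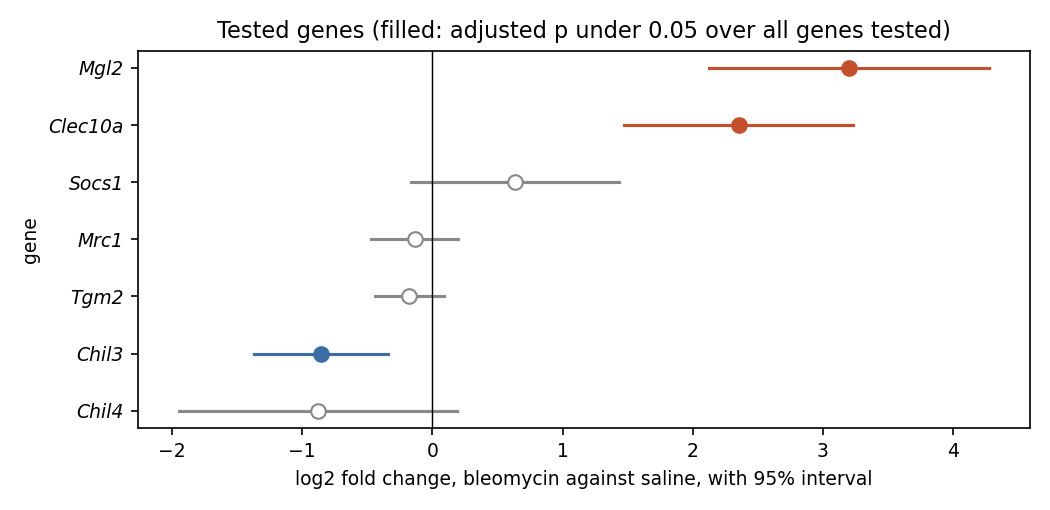
Log2 fold change, bleomycin against saline, with its 95% interval (horizontal line) for the 7 tested genes from 3 libraries a group. Filled points passed an adjusted p of 0.05 over all genes tested. Mgl2 and Clec10a lie to the right of 0 (3.20 and 2.35) and Chil3 to the left (-0.85), and the intervals of the other 4 cross 0.

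Most listed markers of dendritic cells and of monocyte-derived cells also rose after bleomycin, where 9.76% of all tested genes rose and 3.9% fell. Of 11 dendritic cell markers, all tested, 8 rose and 0 fell (Kmo, 1 of the 8, was under 10 in every saline library), and their sum was 793 to 1330 in saline and 1817 to 3506 in bleomycin libraries. Ccr7, the receptor that guides dendritic cells to lymph nodes, rose 6.88-fold (adjusted p = 0.00259), while Clec4b1 and Clec9a, the most abundant of the list with Ccr7, did not pass (log2 -0.66 and 0.74, adjusted p = 0.0738 and 0.338). Of 14 monocyte and monocyte-derived macrophage markers 12 rose and 0 fell, with sums of 8676 to 11413 in saline and 151970 to 283287 in bleomycin libraries. Apoe, the most abundant of them over the 6 libraries, rose 69.8-fold. The bleomycin sums were mostly Apoe (112162, 183748 and 203688 in replicates 1, 2 and 5), and the saline sums mostly Cd14 (5315 to 8583). Bleomycin replicate 1 had the lowest sum of both lists among the bleomycin libraries, the lowest Mgl2 and Clec10a, and the highest Chil3. Both sums were highest in bleomycin replicate 5, however, while Mgl2 (387) and Clec10a (95.6) were highest in replicate 2. Clec10a was nearly as low in bleomycin replicate 5 (66.4) as in replicate 1 (65.6). In saline replicate 2 the dendritic cell sum was the lowest of the saline group (793), as was Mgl2 (14.1), while Clec10a was the highest (22.8). The dendritic cell sums in saline libraries were mostly made of Clec4b1 and Clec9a. Clec9a had 461, 137 and 382 in saline replicates 1, 2 and 3. The part of dendritic and monocyte-derived cells in the change of Mgl2, Clec10a and Chil3 was not tested.

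**Figure D3:**
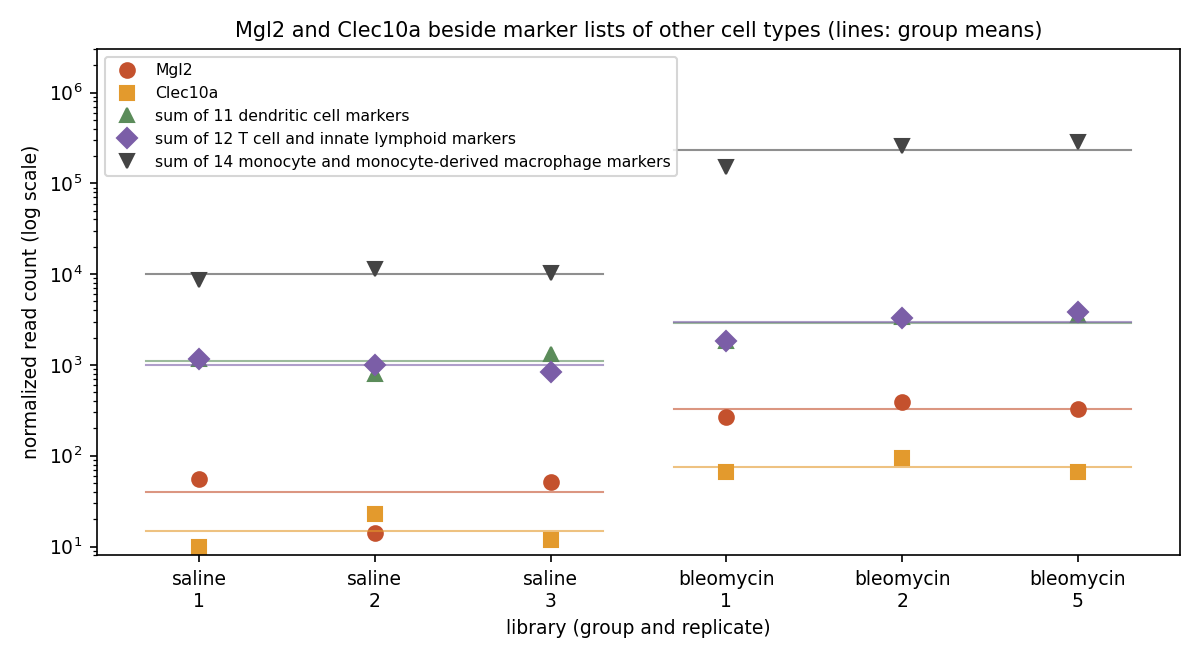
Normalized read counts on a log axis for Mgl2, Clec10a and the summed markers of 3 other cell types, in each saline and bleomycin library, with lines at group means. All 5 series are higher in every bleomycin library, and bleomycin replicate 1 is the lowest of the bleomycin libraries for the 3 marker sums. In bleomycin libraries the monocyte and monocyte-derived macrophage sum is mostly Apoe.

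The enzyme Tgm2, which crosslinks proteins and is an interleukin 4 responsive gene shared by human and mouse macrophages, was abundant in both groups. It had 18398, 20005 and 18449 with saline and 15259, 18676 and 16525 with bleomycin. Bleomycin replicate 2 lay within the saline range, and the ratio of bleomycin to saline was 0.885 (95% interval 0.736 to 1.06, log2 -0.18 ± 0.12, adjusted p = 0.412). Its exons (chromosome 2, 158116402 to 158146436, minus strand) overlap those of Rprd1b and Gm20412 on the other strand, by 370 and 633 bases, so its level is uncertain to that extent.

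The feedback inhibitor Socs1, which binds Janus kinases, was low in both groups. It lies on chromosome 16, 10782240 to 10785536, minus strand. It had 17.7, 34.8 and 24.4 with saline and 32.3, 42.9 and 42.2 with bleomycin, and saline replicate 2 reached into the range of the bleomycin libraries. The ratio was 1.55 (95% interval 0.892 to 2.7, log2 0.63 ± 0.35, adjusted p = 0.312), an interval that leaves room for a rise as large as 2.7-fold.

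Compared per kilobase of exon, the mean levels of the 10 genes in saline libraries spanned from 246659 ± 51451 (SD, n = 3) for Chil3 to 0.99 ± 0.904 for Alox15. Mrc1 followed Chil3 at 8376 ± 1476 and Tgm2 at 4113 ± 198, and these 3 were separated by more than their spread. Below them Mgl2 (19.1 ± 10.7), Retnla (18.1 ± 29.7), Socs1 (8.8 ± 2.97), Chil4 (7.78 ± 2.91), Clec10a (5.09 ± 2.43) and Ccl24 (4.82 ± 7.64) did not differ from their neighbours by more than the spread. In bleomycin libraries the order of the first 3 was the same, with Chil3 at 136018 ± 26063, and Mgl2 came next at 156 ± 28, ahead of Clec10a at 26.2 ± 5.9, both apart from their neighbours by more than the spread. Mrc1 and Tgm2 were at 7548 ± 167 and 3650 ± 375. Retnla, at 14.4 ± 5.02, and Socs1, at 13.5 ± 2.03, did not differ by more than their spread, nor did Chil4 and Ccl24 from each other, and Chil4, Ccl24 and Alox15 came last at 4.12 ± 1.59, 3.63 ± 3.37 and 0.271 ± 0.238.

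Upstream of these genes the ligands were scarce and the receptors abundant. Of 14 listed ligands, receptors, kinases and inhibitors of interleukin 4 and 13 signalling, 12 were tested, 2 rose (Il4 and Socs3) and 0 fell, where 9.76% and 3.9% of all tested genes did, with a median log2 fold change of 0.26. Il4, made by T cells, basophils and mast cells, stood at 33.3, 23.9 and 31.8 with saline against 75.5, 69.2 and 53.4 with bleomycin, without overlap (log2 1.13 ± 0.29, adjusted p = 0.0345). Its rise was lost on leaving out any 1 of the 6 libraries (adjusted p = 0.0557 to 0.149), with no filter (0.0646), at a minimum of 50 (0.054) and after quantile normalization (0.16). Il13 had 0 reads in all 3 saline libraries and 4.49, 25.3 and 19.8 with bleomycin, at least 15.4-fold higher if the 3 saline libraries together are taken to hold 3 reads. It was below the filter. With no filter it passed (adjusted p = 0.00573), but it entered that fit only through its bleomycin reads. Of 11 tested markers of T cells and innate lymphoid cells, 10 rose and 0 fell, with sums of 844 to 1150 in saline and 1850 to 3853 in bleomycin libraries. Among them 8 were under 10 in every saline library, so that they were tested only because they are high after bleomycin. The sums were mostly made of Rora and Il7r. Rora had means of 928 with saline and 807 with bleomycin (adjusted p = 0.5), and Il7r 48.7 and 1679. The part of T cells and innate lymphoid cells in the levels of Il4 and Il13 was not tested.

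The receptor chains were well expressed in both groups. The means of Il4ra were 5718 ± 900 (SD, n = 3) with saline and 7823 ± 881 with bleomycin (ratio 95% interval 1.09 to 1.74, adjusted p = 0.0815). Il13ra1 had 4150 ± 120 and 5122 ± 84.3 (adjusted p = 0.0725), and neither gene's groups overlapped. By DESeq2 both passed (adjusted p = 0.0451 and 0.03), and Il4ra also did without bleomycin replicate 1 (0.0407). The common gamma chain gene Il2rg had 2335 ± 695 and 2633 ± 297 (adjusted p = 0.609), with log2 -0.020 without saline replicate 1. Stat6 itself had 8108 ± 811 with saline and 6647 ± 1002 with bleomycin (log2 -0.29 ± 0.14, adjusted p = 0.244). Socs3, a feedback inhibitor induced mainly through STAT3, rose from 937 ± 822 to 3184 ± 1074, 4.26-fold (adjusted p = 0.0454). Socs3 did not pass by edgeR (0.0905) or DESeq2 (0.115), at a minimum of 50 or without the intensity trend. Nor did it pass on leaving out any of saline replicates 1 and 3 and bleomycin replicates 2 and 5 (0.0894 to 0.139). Its log2 fold change was 2.09, 1.47 without saline replicate 1 and 2.79 without saline replicate 2. Il2rg shares exons with Gm20489, Il4ra with Gm44876 and Stat6 with Nab2. Il13ra2 was not analysed here.

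Of 14 listed transcription factors and chromatin regulators that shape alternative activation, all tested, 2 rose and 0 fell, a share near the 13.7% called in either direction over all genes, with a median of -0.05. Maf, a factor of differentiated macrophages that alveolar macrophages keep low, went from 21.3 ± 3.67 to 216 ± 77.3, 9.33-fold higher (adjusted p = 0.000579). Its exons overlap those of Gm15655. Irf4, a factor needed for interleukin 4 responses, had 121 ± 43.7 and 276 ± 117 (log2 1.14 ± 0.39, adjusted p = 0.097, and 0.0135 by DESeq2 or 0.0116 without bleomycin replicate 1), and Pparg, the lipid-sensing receptor that sets up alveolar macrophages, had 8756 ± 1678 and 7144 ± 1440 (log2 -0.29 ± 0.18, adjusted p = 0.372).

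Other genes reported to respond to interleukin 4 or to mark alternative activation were the most often called of the 4 pathway lists. Of 30 listed, 24 were tested, 13 rose and 1 fell, where 9.76% of all tested genes rose and 3.9% fell. Their median log2 fold change was 1.79. Of the 13, Ocstamp was under 10 in every saline library and was tested only because it is high after bleomycin. Of these 30 genes, 6 also stand in other lists here, among them F13a1 as a monocyte marker. Arg1, arginase 1, went from 14 ± 8.88 to 902 ± 248, 69.1-fold higher (adjusted p = 0.000246), with log2 6.11, or 5.47 without saline replicate 3. F13a1, the A chain of coagulation factor XIII, rose 71.7-fold (adjusted p = 4.9e-05), Ptgs1, cyclooxygenase 1, 15.2-fold (adjusted p = 6.5e-05), and the kinase Matk 11.3-fold (adjusted p = 2.6e-05). Flt1, a receptor for vascular endothelial growth factor, was the 1 that fell, from 6673 ± 1708 to 3023 ± 112, 2.16-fold (adjusted p = 0.00342). F13a1 and Ptgs1 share exons with Gm30489 and Gm43621. The count of falls was 2 without saline replicate 1 or bleomycin replicate 1, with a pseudocount of 0.5, after TMM or quantile scaling and with no trend, and 3 by DESeq2, while the rises numbered 9 to 13 over all alternatives.

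Genes of classical activation, the state induced by interferon gamma and bacterial products, mostly leaned upward, but 9 of the 14 tested did not pass. The log2 fold change was above 0 in 12 of the 14, against 6582 of all 13512 genes tested. Of 16 listed, 14 were tested, 4 rose and 1 fell, against 9.76% and 3.9% over all genes tested, with a median log2 fold change of 1.19. Of the 4 that rose, 2 (Cd38 and Gpr18) were under 10 in every saline library and were tested only because they are high after bleomycin. Cd38, an enzyme that consumes NAD, went from 1.31 ± 2.26 to 154 ± 90.4 (log2 6.26 ± 0.79, adjusted p = 0.0014). With 4 reads over the saline group this value depended on the pseudocount, at log2 6.97 with 0.5 and 4.48 with 5, and was 7.02 without saline replicate 1 and 6.92 without bleomycin replicate 1. Il12b, a subunit of interleukins 12 and 23, rose 11.5-fold (adjusted p = 0.00448). Ptgs2, cyclooxygenase 2, rose 15.5-fold (log2 3.96, adjusted p = 0.0115), with log2 3.23 without saline replicate 1, 4.73 without saline replicate 2 and 4.69 without bleomycin replicate 1. The receptor Gpr18 rose 6.53-fold (adjusted p = 0.0118). The formyl peptide receptor Fpr2 fell 2.55-fold, from 6701 ± 1686 to 2630 ± 723 (adjusted p = 0.00577). The Gpr18 rise did not pass without bleomycin replicate 2 (adjusted p = 0.0665), and Fpr2 shares exons with Fpr3. On leaving out saline replicate 2, 8 genes of this list rose, and on leaving out saline replicate 1, 2 fell.

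**Figure D4:**
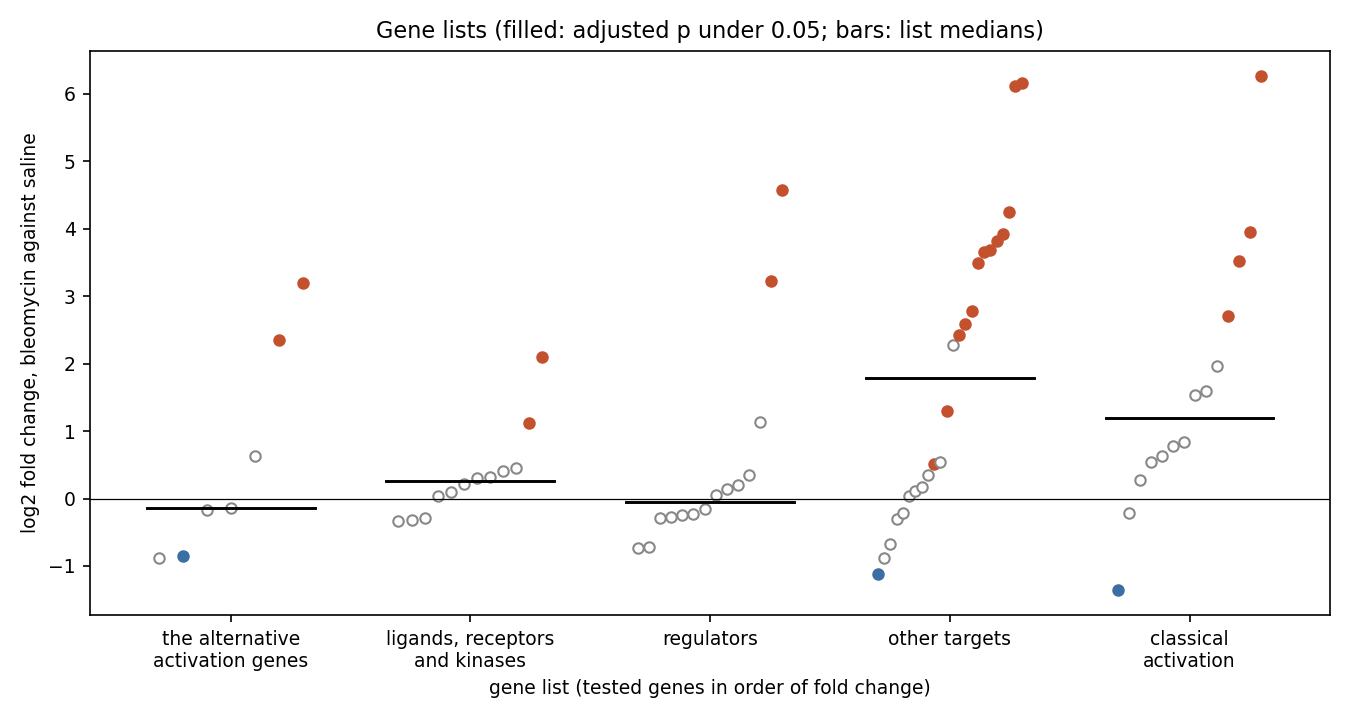
Log2 fold change, bleomycin against saline, of every tested gene in the 10-gene set and 4 related lists. Each point is a gene, filled where its adjusted p was under 0.05 (red higher, blue lower), and bars are list medians. The medians are -0.14, 0.26, -0.05, 1.79 and 1.19 from left to right, beside -0.01 over all genes tested.

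The resident alveolar macrophage markers were expressed in both groups, with the 8 falls and 1 rise of 16 given beside Chil3 and a median log2 fold change of -0.75. Beside this count and those below, 9.76% of all tested genes rose and 3.9% fell. After bleomycin the monocyte-derived marker Apoe, at a mean of 166533, stood above each of the 16 resident markers. Lpl, lipoprotein lipase, and Itgax, the CD11c integrin chain, both among the most abundant of the 16, had means of 96210 ± 4057 and 50914 ± 8101 with saline, against 95100 ± 5103 and 53115 ± 2938 with bleomycin. Of 8 genes listed as eosinophil markers, 2 were tested and 1, Siglece, fell (adjusted p = 0.0305, lost without saline replicate 3 or bleomycin replicate 2 or 5). In saline libraries Siglece stood at 1704 to 3269, Ear6, the other tested, at 345 to 684, and Cebpe, of the same list, at 0 to 1.09. Whether the reads of Siglece came from eosinophils was not tested. The granule genes Epx, Prg2 and Prg3 were not analysed here. Of 8 basophil and mast cell markers 5 were not analysed here (Mcpt8, Ms4a2, Fcer1a, Prss34 and Mcpt4) and 1 was tested, which rose: Kit, from 17.9 ± 15.4 to 195 ± 77.2, while Cpa3 and Tpsb2 stayed under 5 in every library. Of 9 tested epithelial markers 3 rose (Krt18, Sftpc and Sftpb) and 1 fell (Epcam), with sums of 5887 to 6991 under saline and 4190 to 4731 under bleomycin. The lower sum follows Epcam, which went from a mean of 4378 to 1426. Cdh1 had means of 1894 and 1939, Sftpc rose 7.65-fold, and 6 of the 9 had a log2 fold change above 0. Of 5 tested neutrophil markers 3 rose (Cxcr2, Mmp8 and S100a8), with sums of 1536 to 2185 and 4570 to 5274. Of 5 tested fibroblast markers 2 rose (Dcn and Col3a1), with sums of 35.3 to 325 and 235 to 867. Dcn was under 10 in every saline library, so it was tested only because it is high after bleomycin, and its call was lost without bleomycin replicate 5 (adjusted p = 0.0555). The call of Col3a1 (adjusted p = 0.0374) was lost by edgeR (0.0661) and on leaving out any library but saline replicate 3 (up to 0.13). Fabp5, Krt18, Sftpb and Dcn are named because they passed.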

How the data were processed

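Per the submitters' processing notes, the build was mm10 and the tools included STAR (2.5.2b), HTSeq (0.6.0), DESeq2 and bcl2fastq (2.18.0.12). What each did, which annotation and strand setting served and what was filtered is not given in the sources used here, so reads of genes overlapping on opposite strands cannot be told apart. The deposited values are a normalized signal: in each library 100% of the values above 0 came out whole, within 0.05 of a read, once divided by what 1 read is worth, that is, read counts divided by 1 size factor by the authors. Whole reads were recovered from them, 27654799 to 37147983 a library. Symbols were found for 22873 of 22962 identifiers, and positions and exon lengths came from GENCODE M21 (GRCm38, which mm10 names).

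Samples were grouped by treatment from their titles. The test was limma (3.58.1, R 4.3.3), two-sided, with an intensity trend and Benjamini-Hochberg adjustment, on log2(value + 1) of genes that reached 10 in 3 libraries or more. Fold changes are differences of mean logs, not ratios of means, and the pseudocount draws those of low genes towards 0. Intervals are 95%. Ratios of summed reads have exact binomial intervals. Tried as alternatives were quantile normalization and TMM rescaling, a minimum of 50 or none, other pseudocounts (0.5, 5), no trend, edgeR 4.0.16 and DESeq2 1.42.0 on recovered reads, the replicate number as a block, and leaving out each library with the gene set kept. The fit was tested on simulated data. Text names the 10 members, 9 pathway genes, up to 4 called genes in each direction per pathway list, and the 3 most abundant genes of a marker list where they help; Ccr3 was named after its value was seen. Members and lists were chosen with earlier results of these data known, and no list was tested as a set. A further called gene that the naming rule covers is not reported here.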

Additional observations from a re-analysis of the deposited data

How the results depend on the processing

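The rises of Mgl2 and Clec10a passed in all 16 alternatives run, with log2 fold changes of 2.59 to 3.53 and 1.90 to 2.69, and Chil4, Tgm2, Mrc1 and Socs1 passed in none of those in which they could be fitted. Chil4 and Socs1 were not tested at a minimum of 50. The fall of Chil3 kept its direction in all 16 (log2 -1.14 to -0.67, adjusted p = 0.00039 to 0.309). The number of the 10 genes that fell was 0 rather than 1 under the replicate block, without the trend and without the filter, and 0 to 1 over the fits that left out a library, where the number that rose was 2 throughout. Over all genes, leaving out a library gave 768 to 1457 rises and 183 to 624 falls, against 1319 and 527, and the replicate block gave 194 falls. The block, in which the group difference rests on numbers 1 and 2 alone, took away the calls of Chil3 (adjusted p = 0.309) and Il4 (0.128), and raised the classical activation rises from 4 to 7. The replicate numbers were not taken to pair libraries, because the labels do not say so and the deviations from group means of libraries with the same number correlated at -0.20 (number 1) and 0.024 (number 2). Without 1 library the log2 fold change of Mrc1 ran from -0.21 to 0.0043 and that of Il2rg from -0.020 to 0.42, so neither has a settled direction. The difference in the log2 ratio of Mgl2 to Clec10a ran from -0.10 to 1.41 and that of Chil3 to Chil4 from -0.32 to 0.28, or -0.16 at a pseudocount of 5; the causes were not tested. Depth limits Retnla, Ccl24, Alox15 and Chil4, which rest on 9 to 102 reads over the 6 libraries.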
